A study of Mus musculus with 11 samples.

Results

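The genome of a mouse embryonic stem cell (mESC) line without DNA methyltransferases (Dnmt TKO) was compared with 3 long-term Ctrl clones by low-coverage whole-genome sequencing, for short stretches of the autosomes that had gained or lost DNA. Of 11 libraries, 4 enter the comparison, 1 Dnmt TKO against 3 Ctrl, so that no test between the groups is possible. Across the 19 autosomes, 84 short runs of bins differed between them apart from a long gained stretch on chromosome 8, and 50 of these were lost and 34 gained in Dnmt TKO. The counts depend on the definition, and were 128 lost and 64 gained at a lower threshold of 0.2 on the log2 ratio, and 8 and 6 where only bins with little locally repeated sequence were used, a setting chosen after seeing the data. They held 39.4 Mb, or 1.65% of the autosomal sequence measured. Some of the vomeronasal Vmn1r receptors, Skint genes and secretoglobins lay in lost runs, and Dynlt1 genes and some immunoglobulin variable segments in gained runs. Of unnamed Gm gene models, 10.1% lay in gained and 8.31% in lost runs. The shares of all autosomal protein-coding genes were 1.38% and 1.41%.

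The Ctrl clones came from mESC with a tamoxifen-inducible Cre (Cre/ERT2, driven by the human ubiquitin C promoter) and the H2b-Egfp reporter at Rosa26. They were given 1 µM tamoxifen for 2.5 days, expanded as monoclonal populations for 30 days and sorted as live CD326+ and GFP+ cells without Thy1.2. The Dnmt TKO library came from a line, made elsewhere, that carries constitutive deletions of Dnmt1, Dnmt3a and Dnmt3b, and it was sorted as live CD326+ cells without Thy1.2 and without a GFP gate. Both were grown in 2i medium on feeder fibroblasts. The Dnmt TKO line is 1 line with 1 library. The paper states that its mice, from which the Ctrl mESC were derived, had the B6 background. No strain was given for the Dnmt TKO line in the sources used here. The genotype of that line, its derivation, its sort and the lack of a stated tamoxifen pulse all differ from Ctrl at once, and its strain may differ too. These cannot be told apart in any value below, and DNA variants that the lines carried before culture cannot be told apart from those acquired in culture.

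Dnmt1 copies DNA methylation onto newly made strands, and Dnmt3a and Dnmt3b place it on unmethylated DNA. Cells without all of them keep almost no 5-methylcytosine, and mESC can grow in that state. Clusters of nearly identical genes stand side by side in the mouse genome as tandem duplicates. Such clusters differ in copy number between mouse strains, since similar neighbours can pair out of register and exchange unequally. They are also where short reads are hardest to place, because a read may match several copies equally well.

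How alike the copies are can be read from the sequence before the gene starts. Shown first are the 150 bases before the start of gene pairs from 4 of the runs described below, taken from RefSeq on GRCm38.p6 (the mm10 build of the files). Capitals mark the bases that differ between the members of a pair. Vmn1r100 and Vmn1r112, pheromone receptors of the vomeronasal organ in the longest lost run, had 0 differences over these bases. They lie at chr7:20417792-20417941 and chr7:20771035-20771184, both on the plus strand.
Vmn1r100: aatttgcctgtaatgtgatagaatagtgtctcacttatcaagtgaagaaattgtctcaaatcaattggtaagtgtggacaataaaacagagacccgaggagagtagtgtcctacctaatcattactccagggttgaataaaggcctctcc
Vmn1r112: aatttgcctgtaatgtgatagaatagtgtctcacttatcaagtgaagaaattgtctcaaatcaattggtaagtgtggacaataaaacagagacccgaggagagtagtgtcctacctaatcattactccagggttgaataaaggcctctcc
Cyp2b9 and Cyp2b13, liver cytochromes P450 that oxidise steroids and drugs, had 1 difference. They make up a lost run of their own, at chr7:26173259-26173408 and chr7:26061345-26061494 on the plus strand.
Cyp2b9: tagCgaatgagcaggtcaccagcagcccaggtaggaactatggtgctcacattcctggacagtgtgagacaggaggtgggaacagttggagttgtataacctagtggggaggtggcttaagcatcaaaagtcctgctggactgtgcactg
Cyp2b13: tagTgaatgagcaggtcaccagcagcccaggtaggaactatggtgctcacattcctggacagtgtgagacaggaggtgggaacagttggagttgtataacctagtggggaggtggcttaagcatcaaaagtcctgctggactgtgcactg
Skint5 and Skint6, members of a family that helps select skin gamma-delta T cells in the thymus, had 19 differences and show a pair that is less alike. Their windows were chr4:113999504-113999653 and chr4:113286974-113287123 on the minus strand.
Skint5: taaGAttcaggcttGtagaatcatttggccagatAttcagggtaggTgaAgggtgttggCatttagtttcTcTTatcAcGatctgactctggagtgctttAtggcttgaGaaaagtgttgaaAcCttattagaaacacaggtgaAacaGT
Skint6: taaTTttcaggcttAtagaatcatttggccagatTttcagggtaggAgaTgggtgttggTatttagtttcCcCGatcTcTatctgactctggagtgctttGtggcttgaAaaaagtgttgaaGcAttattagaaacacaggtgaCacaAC
Vmn2r111 and Vmn2r112, receptors of the second vomeronasal family in a gained run, had 3 differences. They face away from each other, at chr17:22573274-22573423 on the minus strand and chr17:22600998-22601147 on the plus strand.
Vmn2r111: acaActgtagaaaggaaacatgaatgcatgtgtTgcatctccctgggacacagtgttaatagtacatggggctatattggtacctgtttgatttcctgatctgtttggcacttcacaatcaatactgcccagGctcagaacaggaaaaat
Vmn2r112: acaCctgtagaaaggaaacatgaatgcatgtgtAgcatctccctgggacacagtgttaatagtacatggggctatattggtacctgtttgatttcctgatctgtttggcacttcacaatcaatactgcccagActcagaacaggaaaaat

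The depth of each bin of about 50 kb was divided by the median autosomal bin of its library, which gives a relative depth of 1 for sequence at the library's usual copy number. The Ctrl libraries held 812 Mb, 555 Mb and 641 Mb of aligned bases and the Dnmt TKO library 594 Mb, which comes to 215 to 315 reads in a typical bin. Of 47924 autosomal bins, 47865 were kept, and the 59 left out had a mean relative depth over 3. The log2 ratio of Dnmt TKO to the mean of the Ctrl libraries had a bin-to-bin noise of 0.116, against 0.106 to 0.117 for 1 Ctrl library over the other 2. A run was 3 or more neighbouring bins whose running median of the log2 ratio over 3 bins reached 0.3 or -0.3, and a short run was under 10 Mb.

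In single bins, 4.4% of those kept were at or above 0.3 in Dnmt TKO and 2.59% at or below -0.3. With chromosome 8 left out, 1.3% were at or above 0.3. The same shares were 0.224% and 0.315% in Ctrl 1 over the other 2, 0.432% and 0.648% in Ctrl 2 and 0.299% and 0.556% in Ctrl 3. The run definition found 43 gained and 52 lost runs in Dnmt TKO, and 0 in each of the 3 Ctrl libraries, and the gained runs held 3.97% and the lost runs 0.959% of all bins. The same definition gave 1 or 2 gained and 6 lost runs in each of the long-term Tet iTKO clones of the same series.

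The targeted genes were looked at first. Over the bins of Dnmt1, relative depth was 1.08, 1.07 and 1.04 in Ctrl and 0.954 in Dnmt TKO, a log2 ratio of -0.16. Over Dnmt3a it was 0.988, 0.970 and 1.04 in Ctrl and 1.04 in Dnmt TKO, a log2 ratio of 0.05. Over Dnmt3b it was 1.10, 1.09 and 1.08 in Ctrl and 1.01 in Dnmt TKO, a log2 ratio of -0.11. Dnmt TKO lay below the 3 Ctrl values at Dnmt1 and Dnmt3b and among them at Dnmt3a. Deleted exons are far shorter than a bin, so these depths do not check the genotype on the label. None of the 11 genes of a list of DNA methylation factors lay in a run. Of all 20807 autosomal protein-coding genes, 4.24% overlapped any gained run and 1.47% any lost run, so this absence is not a result about these genes.

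A stretch of chromosome 8 from 11551592 to 93945930, 82.4 Mb long, was raised almost without a break. Its median relative depth was 0.998, 0.999 and 0.995 in Ctrl and 1.42 in Dnmt TKO, and 91.9% of its 1619 bins reached 0.3. The threshold divided it into 9 gained pieces, of which 3 were long and 6 short. The largest of the short pieces was chr8:85294638-93945930, with 9 carboxylesterase genes, the Irx3, Irx5 and Irx6 transcription factor cluster, and Fto, at a ratio of 1.41. Of a list of 15 pluripotency genes, Klf2 and Zfp42 (also called Rex1) lay inside the stretch, with log2 ratios of 0.49 and 0.64, and no other gene of the list lay in a run. Of all 20807 autosomal protein-coding genes, 4.24% overlapped a gained run when the stretch is counted, so 2 of 15 is a description of where these genes lie.

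Local levels inside the stretch departed from its general level in both directions. At chr8:19453063-20004896, a stretch with the defensin gene Defb7, relative depth was 1.18, 1.20 and 1.21 in Ctrl and 2.52 in Dnmt TKO, a ratio of 2.10. At chr8:20862130-21011985, with Defb33, it was 1.04, 0.987 and 0.985 in Ctrl and 1.80 in Dnmt TKO. Defensins are small antimicrobial peptides, and both places lay above the rest of the stretch. At chr8:15402309-16202457, within Csmd1, it was 0.941, 0.914 and 0.953 in Ctrl and 0.555 in Dnmt TKO, a ratio of 0.593. At chr8:21311697-21611407, which holds 9 Defa genes for the alpha-defensins of the gut, the ratio was 0.591. The last 2 were the lost runs inside the gained stretch, and all runs inside it were set apart from the counts that follow. The median log2 ratio was 0.41 over the whole of autosome 8 and -0.02 over the part of it outside runs, and it ran from -0.02 to 0.01 over the other 18 autosomes.

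The 34 gained runs apart from that stretch covered 17.01 Mb and the 50 lost runs 22.4 Mb. A typical run was short in both directions, with a median of 249.95 kb for gained and 250.03 kb for lost runs, and 21 gained and 31 lost runs were under 300 kb. The 4 longest of each direction held 50.9% of the gained and 37.9% of the lost length. Gained runs had a median ratio of 1.55 (range 1.31 to 2.37) and lost runs of 0.659 (range 0.249 to 0.792). If Ctrl has 2 copies in every cell, these medians are copy levels of 3.10 and 1.32. By nearest copy level, with classes of equal width around 1, 2, 3, 4 and more copies, 26 gained runs fell at 3, 7 at 4 and 1 above, and 43 lost runs fell at 1, 1 nearest to 0 and 6 at 2.

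The runs were unevenly spread. Chromosome 7 held 18 of them, 5 gained and 13 lost, over 7.13% of its measured length. Chromosome 12 held 13 runs, chromosome 17 held 10, and chromosomes 15, 16 and 18 held 0. By length, chromosome 14 followed chromosome 7 with 6.45 Mb, of which 4.80 Mb were gained. Gained runs started at the first bin of chromosomes 6 and 14, next to the centromere, and 8 of 34 gained runs but 1 of 50 lost runs lay within 10 Mb of the first bin, where 7.92% of all bins lie. Near the far end, where 7.86% of all bins lie, the counts were 5 gained and 1 lost. Neighbouring runs of a cluster were counted singly. The 8 gained runs include the gained Vmn2r runs of chromosome 7, and the 5 include the runs of immunoglobulin variable segments on chromosome 12.

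**Figure D1:**
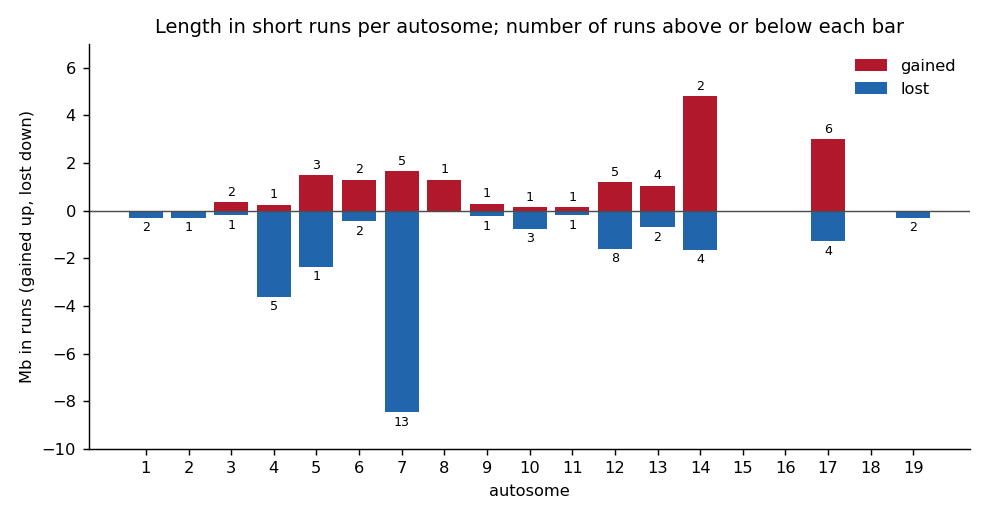
Length in Mb of the 34 gained runs (red, upward) and 50 lost runs (blue, downward) on each autosome, apart from the long stretch on chromosome 8, with the number of runs at each bar. Chromosome 7 has the most lost sequence (8.46 Mb in 13 runs) and chromosome 14 the most gained (4.80 Mb in 2 runs), while chromosomes 15, 16 and 18 have none.

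The weakest members had log2 ratios of 0.40 and -0.34. With the threshold lowered to 0.25, 9 further gained and 21 further lost runs appeared that overlapped none of these, with ratios up to 0.42 and down to -0.45. These values only describe where the threshold fell. In the runs themselves, the largest departure of 1 Ctrl library from the other 2 was 0.17 on the log2 scale in gained and 0.18 in lost runs.

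**Figure D2:**
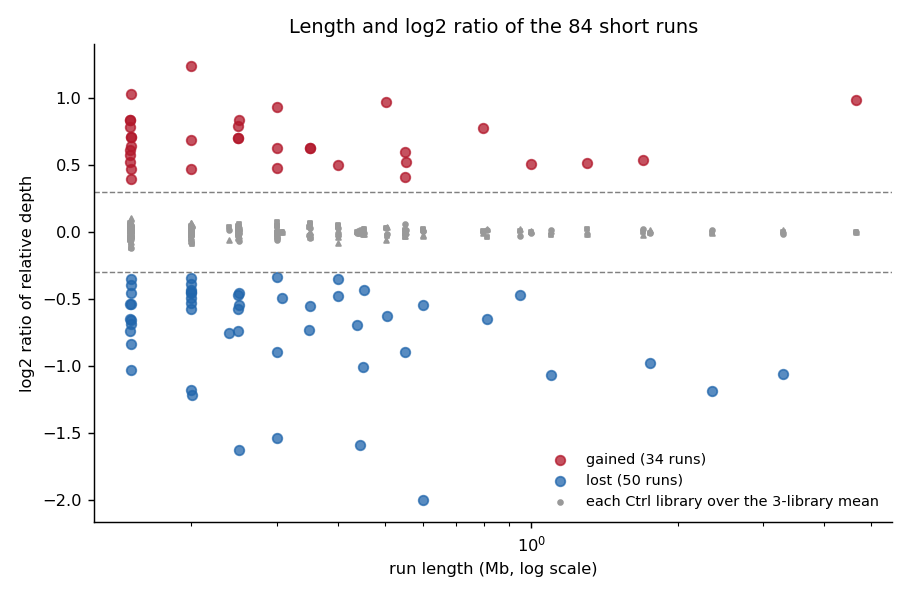
Length (log axis, Mb) against log2 ratio of relative depth for each short run, gained in red and lost in blue, with each Ctrl library over the mean of the 3 in grey and the thresholds of 0.3 and -0.3 dashed. The Ctrl points of every run sit between the dashed lines, and the deepest loss (-2.004) lies in a run of 0.60 Mb.

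The deepest loss fell on the Skint cluster of chromosome 4. At chr4:112026188-112626185, with Skint1, Skint2, Skint3, Skint4 and Skint9, relative depth was 1.00, 0.981 and 1.01 in Ctrl and 0.248 in Dnmt TKO. The log2 ratio was -2.004, and the ratio of 0.249 had a 95% interval of 0.230 to 0.269, which like all intervals here covers the counting of reads only. Single bins of the run ranged from 0.0439 to 0.566 in Dnmt TKO, so that the lowest bins held almost no reads while others held about as much as the next run. That next run, chr4:112776186-113876180, holds Skint6 and part of Skint5, whose start lies beyond its end. Its relative depth was 0.999, 0.995 and 0.976 in Ctrl and 0.472 in Dnmt TKO, a ratio of 0.477. Together the runs overlapped 7 of the 11 Skint genes measured. Skint1 is the member whose loss is known to deprive mice of the skin gamma-delta T cells.

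The longest lost run carried receptors for pheromones. At chr7:20022208-23321006, a run of 3.30 Mb, relative depth was 1.09, 1.11 and 1.11 in Ctrl and 0.530 in Dnmt TKO, a ratio of 0.481 (95% interval 0.470 to 0.493). The level was low over all of its 65 bins, with bin log2 ratios from -1.84 to -0.31. It holds 49 of the 208 Vmn1r genes, each a G protein-coupled receptor of the vomeronasal organ, with Nlrp9b and Nlrp4e, which belong to a family of innate immune sensors and oocyte proteins. The identical promoter stretches of Vmn1r100 and Vmn1r112 printed above come from this run.

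**Figure D3:**
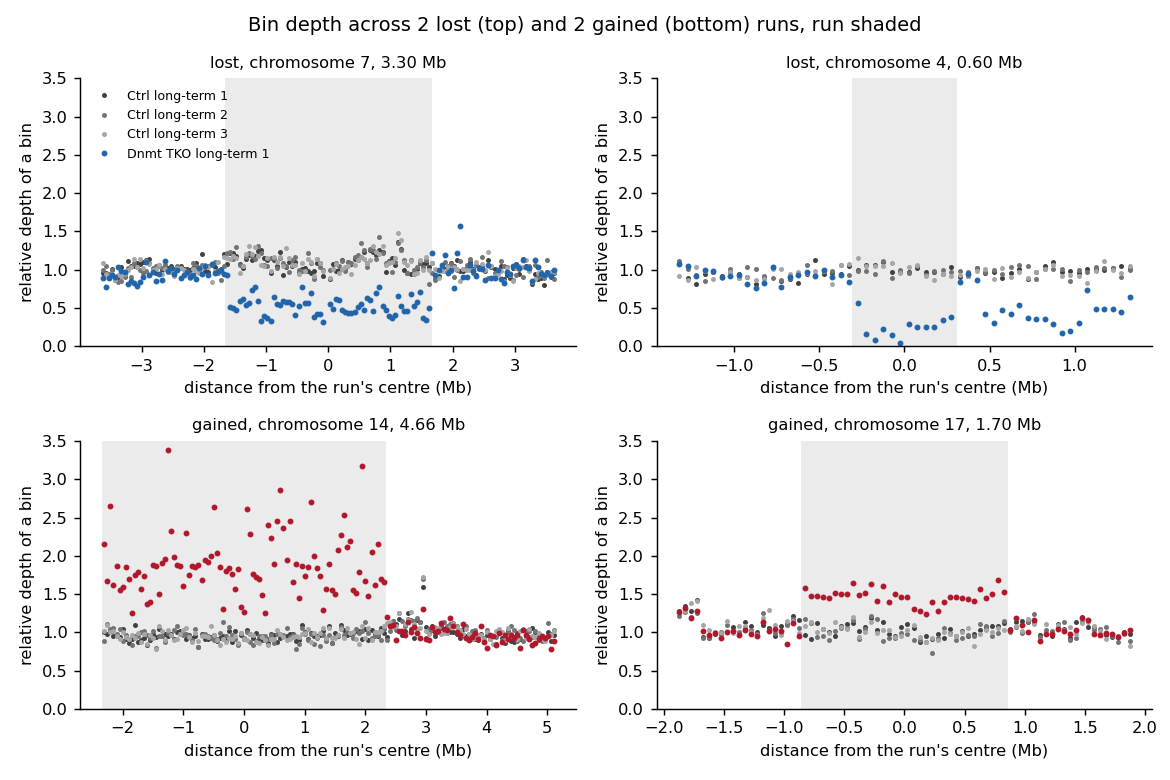
Relative depth of each bin against its distance in Mb from the run's centre, for the lost Vmn1r run on chromosome 7 and the lost Skint1 run on chromosome 4 (top) and the gained runs at the start of chromosome 14 and at Pkd1 on chromosome 17 (bottom), with the run shaded, Ctrl libraries in grey and Dnmt TKO in colour. Dnmt TKO leaves the Ctrl level at or near the edge of each run. The low bins to the right of the chromosome 4 run belong to the Skint5 and Skint6 run, and a lost run with Psg genes lies towards the left of the chromosome 7 panel.

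Other long losses were of the same kind. At chr7:31576037-33327103 relative depth was 0.975, 0.994 and 0.979 in Ctrl and 0.499 in Dnmt TKO, a ratio of 0.508. This run of 1751 kb holds 9 Scgb1b and 7 Scgb2b genes, which encode the subunits of androgen-binding proteins of mouse saliva and tears, 16 of the 29 measured. At chr5:93438715-95786943 relative depth was 0.973, 0.957 and 0.958 in Ctrl and 0.422 in Dnmt TKO, a ratio of 0.438. That run of 2.35 Mb holds 27 protein-coding genes, of which 26 bear only names of gene models, and the remaining gene is D5Ertd577e. Over each whole run Dnmt TKO lay well below the Ctrl libraries, but single bins were uneven. Their log2 ratios ran from -3.50 to -0.19 in the Scgb run and from -1.78 to -0.41 in the run of chromosome 5.

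Some short losses with few genes went further down. They were named because their log2 ratios were among the largest, and the median ratio of all 50 lost runs was 0.659. At chr7:25972622-26222774, which covers Cyp2b9 and Cyp2b13, relative depth was 1.04, 1.02 and 0.999 in Ctrl and 0.329 in Dnmt TKO, a ratio of 0.323. At chr17:39899010-40198945, with the pheromone peptide gene Esp38, it was 1.06, 1.09 and 1.07 in Ctrl and 0.370 in Dnmt TKO, a ratio of 0.345. At chr7:3716658-3917337, with the paired immunoglobulin-like receptor genes Pira2, Lilra6 and Pirb, it was 1.12, 1.14 and 1.03 in Ctrl and 0.472 in Dnmt TKO, a ratio of 0.431. At each of these Dnmt TKO lay at less than the middle between the Ctrl libraries and 0. The largest departure of 1 Ctrl library from the other 2 was 0.04 on the log2 scale at the Cyp2b run. It was 0.03 at the Esp38 run and 0.14 at the Pira2 run. Pirb encodes an inhibitory and Pira2 an activating receptor of myeloid cells. At the Pira2 run the other 7 libraries, from 0.857 to 1.01, also lay below every Ctrl library but nearer to them than to Dnmt TKO, and the log2 ratio was -1.21 against Ctrl and -0.90 against the Tet iTKO clones.

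At 2 of the named losses, some of the other 7 libraries of the series lay at least midway from Ctrl towards Dnmt TKO. At chr14:25853324-26298546, with 3 Duxbl genes (homeobox factors related to the 2-cell stage activator Dux), 3 Cphx homeobox genes, 3 Tmem254 genes and Anxa11, relative depth was 1.35, 1.34 and 1.32 in Ctrl and 0.444 in Dnmt TKO, a ratio of 0.333. The 3 long-term Tet iTKO clones had 0.868, 0.898 and 0.909 there, and the Ctrl libraries before treatment and soon after it had 0.690 and 0.745. At chr11:71132006-71332007, with Nlrp1a and Nlrp1b, sensors that start pyroptosis, it was 1.03, 1.02 and 1.01 in Ctrl and 0.449 in Dnmt TKO, a ratio of 0.441. Here the same untreated and acute Ctrl libraries had 0.695 and 0.719, while the Tet iTKO clones had 0.991 to 1.02. The untreated and acute libraries, 4 in all, also had a Y-chromosome relative depth of 0.0269 to 0.0381, against 0.463 to 0.470 in the long-term Ctrl clones and 0.458 in Dnmt TKO. In the content of this chromosome they differ from the long-term Ctrl clones.

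Over all short runs apart from the stretch, all 10 other libraries lay on the Ctrl side of Dnmt TKO in 33 of 34 gained and 49 of 50 lost runs. The 3 Ctrl libraries among them did so by the definition of a run, so only the other 7 add to this count. At least 1 of the 7 libraries outside this comparison lay at least midway towards Dnmt TKO in 1 gained and 7 lost runs. The exception among the gained runs was chr5:14912509-15707363, with Speer genes of the testis, at 1.78, 1.77 and 1.79 in Ctrl and 3.05 in Dnmt TKO. The other 7 libraries were at 3.58 to 5.42 there, above both. The exception among the lost runs was chr19:37223629-37373677, with Ide, at 1.62, 1.69 and 1.69 in Ctrl and 1.21 in Dnmt TKO. The untreated and acute Ctrl libraries were at 1.17 and 1.18 there, below Dnmt TKO.

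**Figure D4:**
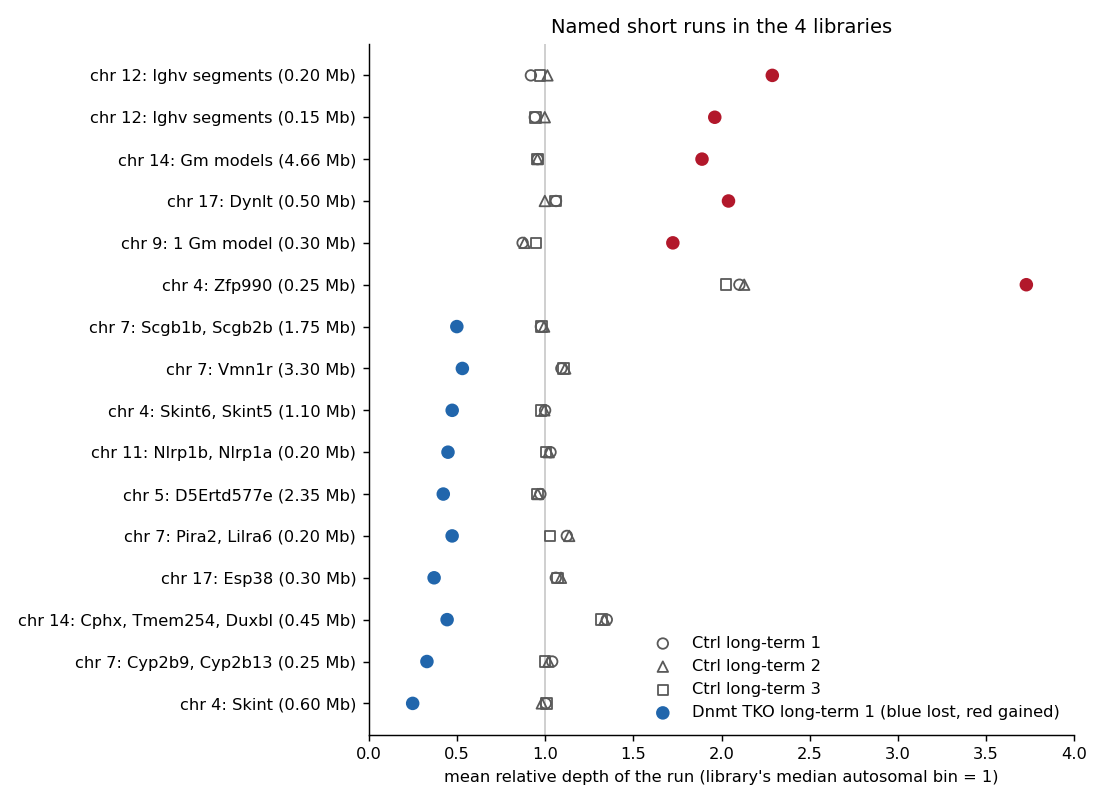
Mean relative depth (horizontal axis, 1 being the library's median autosomal bin) of each named run apart from the chromosome 8 stretch, for the 3 Ctrl libraries (open symbols) and Dnmt TKO (filled, blue for lost and red for gained), ordered by log2 ratio. Dnmt TKO lies outside the Ctrl values in every row by the definition of a run, and the rows were chosen for a large log2 ratio or length. The Zfp990 run is already near 2 in Ctrl and reaches 3.73 in Dnmt TKO.

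The longest gain stood at the start of chromosome 14. At chr14:3000001-7655586, a run of 4.66 Mb, relative depth was 0.957, 0.956 and 0.955 in Ctrl and 1.89 in Dnmt TKO, a ratio of 1.98 (95% interval 1.95 to 2.00). Single bins ranged from 1.254 to 3.38 in Dnmt TKO and from 0.780 to 1.14 in Ctrl, so that every bin of Dnmt TKO exceeded every bin of Ctrl. All 99 of its protein-coding genes bear only names of gene models, and 90.02% of its 50-base words occurred again within 5 Mb.

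Gains with a ratio near 2 were also found at short runs. At chr17:6214119-6716324, with 4 Dynlt1 genes for a dynein light chain, and with Tulp4, Tmem181a and Sytl3, relative depth was 1.06, 0.998 and 1.06 in Ctrl and 2.04 in Dnmt TKO, a ratio of 1.96. At chr9:46870119-47170170 it was 0.872, 0.883 and 0.947 in Ctrl and 1.72 in Dnmt TKO, a ratio of 1.91. Only 1 gene model lies in this run, and 0.668% of its 50-base words recurred nearby, the lowest share of the named runs. At chr4:145397885-145648929, with the zinc finger gene Zfp990, it was 2.10, 2.13 and 2.02 in Ctrl and 3.73 in Dnmt TKO, a ratio of 1.79. That place was above 1 in Ctrl too, so its copy level cannot be read as 2 times the ratio.

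The highest ratio of all runs was at the immunoglobulin heavy chain locus. At chr12:115475766-115675909, with 7 Ighv segments, relative depth was 0.919, 1.01 and 0.970 in Ctrl and 2.29 in Dnmt TKO, a ratio of 2.36. At chr12:113574407-113724513, with 10 Ighv segments, it was 0.941, 0.997 and 0.945 in Ctrl and 1.96 in Dnmt TKO, a ratio of 2.04. With 2 weaker runs between them (ratios 1.33 and 1.63), these overlapped 52 of the 264 immunoglobulin segments annotated on autosomes, and 0 lay in lost runs. Of 226 T-cell receptor segments, 68 lay in lost runs at chr14:52817910-53417779 and chr14:53617736-53767702 (ratios 0.685 and 0.687) and 0 in gained runs. Of all autosomal protein-coding genes, 1.38% overlapped a gained and 1.41% a lost run apart from the stretch. The segments counted come from neighbouring runs at 1 locus each and are not independent of each other, and the lists of segments were drawn up after the runs were seen. Such segments are joined only in lymphocytes.

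The remaining gains of 1 Mb or more held ordinary genes, named here after their values were seen. At chr17:24402318-26101954, 1.70 Mb with 93 protein-coding genes, relative depth was 1.03, 0.995 and 1.01 in Ctrl and 1.47 in Dnmt TKO, a ratio of 1.45. It holds Pkd1, the gene of the main form of polycystic kidney disease, and Tsc2, which restrains growth through mTORC1. Tsc2 was the only gene of a list of 9 tumour suppressors and growth genes in a run. Of all autosomal protein-coding genes, 4.24% overlapped any gained and 1.47% any lost run, so 1 of 9 only describes where Tsc2 lies. At chr8:126400780-127700973, with the polarity gene Pard3, the ratio was 1.43. At chr6:3050001-4050101, with Calcr and Samd9l, the ratio was 1.42. A run of 0.55 Mb, chr5:103530408-104079943 with Aff1 and Ptpn13, had a ratio of 1.51. All 4 had under 10% of their 50-base words repeated nearby.

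**Figure D5:**
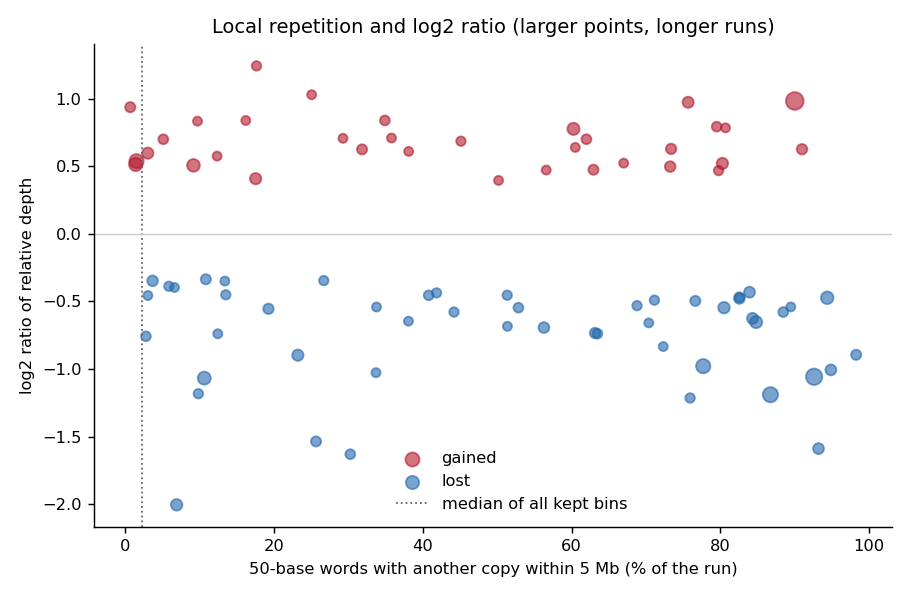
Share of 50-base words of a run that occur again within 5 Mb (horizontal axis, %) against its log2 ratio, with gained runs in red, lost runs in blue and larger points for longer runs. The dotted line is the median of all kept bins (2.27%), and most runs of both directions lie to its right.

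Beyond the depth that defined them, most runs, though not all, had more local repetition than a typical bin. The share of 50-base words with another copy within 5 Mb had a median of 41.6% in gained and 52.1% in lost runs. Over all kept bins the median was 2.27% and the mean 6.73%. The first 2 values are taken over averages of whole runs and the last 2 over single bins. It was 50% or more in 16 of 34 gained and 27 of 50 lost runs, and in 2.12% of all bins. It was under 10% in 7 gained and 7 lost runs, and in 80.3% of all bins. GC content was close to that of the genome, with medians of 40.6% and 41.6% against 41.4%, while the share masked as interspersed repeats was 47.97% and 45.0% against 31.4%. The median depth ratio was 1.51 for gained runs under 10% and 1.54 for those at 50% or more, and 0.729 and 0.636 for the same classes of lost runs.

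Promoter sequence showed the same property gene by gene. A promoter in the RefSeq table, 250 bases before and 50 after a start, was matched by symbol for 201 of 288 protein-coding genes in gained runs, 194 of 293 in lost runs and 15687 of 20780 on all autosomes. A promoter of another gene within 1 Mb was identical at 90% or more of bases for 31.8% of those in gained runs, 56.2% in lost runs and 3.81% of all. At 98% or more the shares were 16.9%, 36.6% and 1.51%. The pairs printed above had 99.3% for the Vmn1r and Cyp2b genes, 89.7% for Skint5 and Skint6 and 98.3% for the Vmn2r genes over the full window. A read that matches several copies equally well cannot be assigned to 1 of them. The share of 50-base words with another copy within 5 Mb was 92.6% in the Vmn1r run, 30.3% in the Cyp2b run, 12.3% in the Vmn2r111 and Vmn2r112 run and 6.90% and 10.6% in the Skint runs, so that such reads are frequent in the first and fewer in the others.

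Gene families were counted over the same runs, beside 1.38% of 20807 autosomal protein-coding genes in gained and 1.41% in lost runs. Families with members in lost runs alone were Vmn1r (49 of 208), Scgb1b and Scgb2b (16 of 29), Trim (10 of 70, in 1 run of chromosome 7 that holds Trim30a), Skint (7 of 11), Klr natural killer receptors (6 of 26), Olfr odorant receptors (6 of 1128), Ceacam and Psg (5 of 28), Nlrp (4 of 17), Serpin protease inhibitors (4 of 60), Duxbl (3 of 3) and Cyp (2 of 102). Speer (3 of 10) and Prl (2 of 25) had members in gained runs alone. The Vmn2r receptors had 18 of 121 in gained and 5 in lost runs, Zfp 4 of 388 in each, and unnamed Gm models 124 of 1228 in gained and 102 in lost runs. No member of Pramel and Pramef, Zscan4, Tcstv, Ear, Ugt, Mup, Sult, Ifi2 and Pyhin, Naip, H2-, Defa, Amy, Hist or Pcdh lay in these runs. None of 18 chromosome segregation genes did either. Odorant receptors, the largest family with its own name, had 0.532% of members in lost runs, below the share of all genes. Members that share a run, such as the 49 Vmn1r genes, are not independent of each other. The family shares therefore only describe where the members lie.

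In 4 places a gained and a lost run stood within 500 kb of each other. On chromosome 10, chr10:22022741-22172698 had a ratio of 0.599 and the next run, chr10:22222685-22372643, a ratio of 1.53, over Raet1e, H60b and Raet1d, which encode ligands of the natural killer receptor NKG2D. On chromosome 17, the Vmn2r111 and Vmn2r112 run (ratio 1.49) lay 249.9 kb before a lost run with Vmn2r113 (ratio 0.599). The others were on chromosome 7 (1.63 beside 0.709) and chromosome 12 (0.730 beside 1.56). The 4 gained Vmn2r runs of chromosome 7 had ratios of 1.43 to 1.73.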

How the data were processed

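Low-coverage whole-genome libraries were made PCR-free and sequenced single-end. The authors aligned reads to mm10 with BWA-mem and removed duplicates with Picard. The deposited tables hold, per bin of about 50 kb, a depth signal (mean coverage, not normalized) and its log2, as in CNVkit coverage files; only depth was used. BWA places a read that matches several copies equally well at 1 of them, so depth within a repeated cluster is shared among its copies. Low values were multiples of 50 bases per bin in 96.2% of cases, from which read numbers and exact binomial (95%) intervals were derived; these cover counting error only.

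Relative depth, log2 ratios (mean relative depth over the 4 libraries from 0.3 to 3), running medians over 3 bins and runs (3 bins or more, joined across at most 2 bins, split at gaps over 500 kb) were computed with Python 3.11.15, numpy 2.4.6 and pandas 2.3.3. A run also needed a Dnmt TKO depth outside the 3 Ctrl values and an own log2 ratio of 0.3 or -0.3, which left out 5 of 100 candidates. The run finder was tested on simulated data. Gene positions came from GENCODE M21, sequence, repeated 50-base words (1 in 32 sampled) and promoters from RefSeq GRCm38.p6; identity was by edlib. Named were the 8 runs of each direction with the largest log2 ratio and the 4 longest, the list genes in runs, and the Dnmt genes. With 1 library against 3 there is no test, and the Ctrl spread may be technical. The members and lists were chosen with earlier results of these data known. Alternatives covered scaling, GC correction, filters, threshold, run length, smoothing, windows, reference and left-out Ctrl libraries.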

Additional observations from a re-analysis of the deposited data

Results flagged for a closer look

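The sex chromosomes took no part in the comparison, and the run definition was applied to them afterwards. It found 4 gained runs on X and 1 lost run on Y in Dnmt TKO and 0 in each Ctrl library over the other 2. On X the ratios were 1.42 at chrX:3050001-5279398, 1.28 at chrX:17826458-17976381, 1.45 at chrX:31104766-31620769 and 1.38 at chrX:32225647-34614486. The first of these began at the first bin of the chromosome, as did the gained runs of chromosomes 6 and 14, and had relative depths of 0.645, 0.670 and 0.649 in Ctrl and 0.927 in Dnmt TKO. On Y the ratio was 0.762 at chrY:70888837-71038847, with 0.485, 0.480 and 0.512 in Ctrl and 0.375 in Dnmt TKO. Median relative depth over X was 0.568, 0.572 and 0.570 in Ctrl and 0.592 in Dnmt TKO. What underlies these values was not tested.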

How the results depend on the processing

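No paired analysis was possible because 1 library was set against 3 and only 1 number is shared. Dividing by another median or by the mean, GC correction, another depth filter, another reference and leaving out a Ctrl library kept the counts within 1.5 times, with 39 to 45 short gained and 49 to 54 short lost runs without each Ctrl library in turn (30 to 37 and 47 to 52 apart from the chromosome 8 stretch). A threshold of 0.2 gave 67 gained and 130 lost short runs (64 and 128 apart from the stretch), where each Ctrl library gave 1 to 6 gained and 2 to 7 lost. A threshold of 0.4 gave 62 gained runs and single bins without smoothing 107, since the stretch broke into more pieces (29 and 36 apart from it). At 0.4, only 28 of the 34 gained and 33 of the 50 lost runs apart from the stretch were found again. At least 5 bins a run gave 24 gained and 30 lost (19 and 28 apart from the stretch), and windows of 10 bins 24 and 27 (22 and 26). In bins with under 10% of 50-base words repeated within 5 Mb, a setting chosen after seeing the data along with the separation of the stretch, 10 gained and 9 lost runs were found (6 and 8 apart from the stretch). Of the 34 and 50 runs, 31 and 40 were found again against the Tet iTKO clones as reference. The median log2 ratio of autosome 8 was 0.42 divided by the median without it, 0.40 divided by the mean, 0.40 against Tet iTKO, 0.42 in the little-repeated bins and 0.41 to 0.42 without each Ctrl library. At Dnmt3b the log2 ratio was -0.13 divided by the mean, -0.10 with GC correction, -0.14 against Tet iTKO, -0.14 against all other libraries and -0.18 in the bin with the largest overlap, and at Dnmt1 -0.13 in that bin. The 21 named runs were chosen for their log2 ratio or length, so a change of sign was hardly possible, and none occurred in 189 recalculations. Of these values, 31 moved by 1 SD of the Ctrl libraries or more. The largest shift, 0.58, was at the Duxbl run against Tet iTKO (-1.01 in place of -1.59). Depth limits the runs to those of 3 bins and about 150 kb, and a loss in a fraction of cells under the threshold was not detectable at this depth.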
